A study of Mus musculus with 8 samples.

Results

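In all, 9 genes of the interferon pathway were read in red cell precursors of the mouse fetal liver, in which either a nuclear RNA-binding protein or a long noncoding RNA had been targeted. The list was drawn up by role, without a threshold on any value but with earlier results of these data known. It held the RNA sensor genes Ddx58, Ifih1 and Dhx58, the transcription factor genes Irf1, Irf7, Irf9 and Stat2, the feedback gene Usp18 and the effector kinase gene Eif2ak2. All 9 matched an Ensembl ID, out of 37620 gene IDs in the count files, and all 9 were among the 15355 genes tested.

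Total RNA without ribosomal RNA was sequenced in 8 libraries of erythroid progenitors from fetal livers of C57BL/6 mice at E14.5, sorted magnetically, transduced, and kept for 24 h in medium with erythropoietin, the hormone that drives red cell differentiation. The hnRNPU knockdown had 1 library for each of 2 hairpins (hnRNPU_sh1 and hnRNPU_sh2) and 1 control hairpin library (hnRNPU_shCTL). The Bloodlinc knockdown, against a long noncoding RNA, had the same layout (Bloodlinc_sh1, Bloodlinc_sh2 and Bloodlinc_shCTL). Overexpression of Bloodlinc had 1 library (Bloodlinc_vector) against 1 library of an empty vector (Empty_vector). All 6 groups share strain, tissue, stage and transduction, no untransduced cells are among them, and nothing in the labels tells whether a target's hairpins were given to separate cultures. P-values therefore measure only the spread between these libraries, which may be technical.

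Cells detect viral or misplaced RNA in the cytoplasm through RIG-I and MDA5, the products of Ddx58 and Ifih1, which signal through MAVS to switch on interferon genes. Secreted type I interferon binds its receptor and activates STAT proteins, among them STAT2, which joins IRF9 in the complex ISGF3. That complex binds the interferon-stimulated response element, and the sensor, IRF and STAT genes are themselves among its targets, so the pathway amplifies itself until inhibitors such as USP18 dampen it.

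Promoter sequence is shown first because 6 of these genes passed the test together in one comparison and because the core of the response element, GAAANNGAAA, can be read directly. RefSeq promoter windows on GRCm38.p6, from 250 bases before to 50 bases after an annotated start, were found for 7 of the 9 genes (9 windows, since Irf1 and Irf9 have a pair of starts each), but none for Dhx58 and Usp18. Both strands were searched for GAAANNGAAA and for the variant with a spacing of 1 base, GAAANGAAA, which was added after the sequences had been seen. In the lines that follow, 5′ to 3′ on the strand of the gene, capitals mark a match, and TTTC in capitals is a match on the opposite strand. The first 3 lines are the 250 bases before the start of Stat2 (chr10:128270248-128270497, plus strand), Ddx58 (chr4:40239826-40240075, minus strand) and Irf7 (chr7:141266425-141266674, minus strand). The others are short stretches around a match near Ddx58 (chr4:40239804-40239833, minus strand), Ifih1 (chr2:62646206-62646233, minus strand) and Eif2ak2 (chr17:78882535-78882564, minus strand).
Stat2: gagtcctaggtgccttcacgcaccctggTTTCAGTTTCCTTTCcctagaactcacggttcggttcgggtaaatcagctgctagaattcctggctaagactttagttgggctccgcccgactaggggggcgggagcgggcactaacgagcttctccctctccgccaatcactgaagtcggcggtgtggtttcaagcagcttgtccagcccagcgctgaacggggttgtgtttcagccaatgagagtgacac
Ddx58: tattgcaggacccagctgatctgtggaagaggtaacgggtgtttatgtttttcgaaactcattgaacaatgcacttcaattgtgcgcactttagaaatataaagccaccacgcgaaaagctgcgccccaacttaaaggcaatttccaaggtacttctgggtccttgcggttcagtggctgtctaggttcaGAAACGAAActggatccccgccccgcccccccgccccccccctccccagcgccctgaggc
Irf7: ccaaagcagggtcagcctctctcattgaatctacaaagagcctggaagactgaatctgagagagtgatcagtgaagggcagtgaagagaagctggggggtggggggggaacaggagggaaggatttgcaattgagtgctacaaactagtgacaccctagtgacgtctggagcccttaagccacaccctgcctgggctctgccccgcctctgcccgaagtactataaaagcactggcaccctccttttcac
Ddx58, at its start: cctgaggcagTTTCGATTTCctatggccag
Ifih1, after its start: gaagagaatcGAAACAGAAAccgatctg
Eif2ak2, after its start: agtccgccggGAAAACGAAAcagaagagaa

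GAAANNGAAA was read in 4 of the 7 genes with a window (Ddx58, Ifih1, Stat2 and Eif2ak2), and in 3.44% of 32851 promoter windows of the same length in all. GAAANGAAA was read in Ddx58 and Stat2 and in 3.17% of all windows, and in Stat2 it overlaps the GAAANNGAAA match. Neither was in the windows of Irf1, Irf7 and Irf9, which says nothing of other stretches of those genes. The matches are letters in the reference and not measured binding sites.

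The hnRNPU hairpin libraries stand apart in depth and in where their counts fell. Counts in genes came to 2931627 and 2612916 with hnRNPU hairpins 1 and 2, against 33820556 in their control, and to between 23682993 and 34540691 in the other 5 libraries. Counts outside genes made up 89.7% and 86.6% of those placed uniquely with these hairpins, and 21.7% to 30.1% in the 6 deeper libraries. Within the gene counts, IDs that matched no gene of the annotation held 32.9% with hairpin 1 and 23.1% with hairpin 2. In their control they held 0.695%, and in the other libraries at most 1.45%, with the empty vector. On the scale of the levels given here, CPM scaled by edgeR's TMM factors, a floor of 3 counts was worth 1.77 and 1.18 CPM with hnRNPU hairpins 1 and 2 and 0.0655 to 0.154 CPM elsewhere. Hnrnpu itself was at 325 and 373 CPM with its hairpins and at 588 CPM in their control, a difference that did not pass the test (adjusted p = 0.730, edgeR). Bloodlinc was at 2.19 and 1.75 CPM with its hairpins and at 4.46 CPM in their control (adjusted p = 1, edgeR), and at 5.46 CPM with its vector and 1.26 CPM with the empty vector. Erythroid markers, among them globin genes and Alas2, were the most abundant marker list in every library, at a summed 21869.5 to 98886.5 CPM. The list was split with hnRNPU hairpin 1, where 5 of the 10 matched markers were higher than in the control. The others were lower: Epor at 19.5 CPM, against 109 CPM, Klf1 at 137 CPM, against 446 CPM, and Gata1 at 119 CPM, against 227 CPM. Tfrc was at 1526 CPM, against 4713 CPM, and Epb42 at 538 CPM, against 729 CPM.

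Levels are CPM, the share of a library's gene counts scaled by edgeR's TMM factors, and tests are edgeR's quasi-likelihood tests over 15355 genes with Benjamini-Hochberg adjustment and a threshold of 0.05. In the hnRNPU knockdown 6 of the 9 genes rose and 0 fell, where 0.580% of all tested genes rose and 0.300% fell. Because the list was chosen with earlier results of these data known, this count describes the list and is not independent evidence. The genes that rose were all 3 RNA sensor genes, Irf7, Stat2 and Usp18. Irf1, Irf9 and Eif2ak2 did not pass, with log2 fold changes of 2.48, 2.02 and 1.87. The median log2 fold change was 2.94 over the 9 genes and −0.09 over all genes tested. With hnRNPU hairpin 1 left out 0 of the 9 genes passed, while 4 of 9 passed with hairpin 2 left out. The count was 3 with DESeq2 (Ddx58, Dhx58 and Stat2) and 1 with robust estimation of the spread (Dhx58). It was 0 with every library thinned to the shallowest or with the 3 control libraries as 1 group. Calls over all tested genes fell too. In the main fit 89 rose, against 77 with DESeq2 and 30 with robust estimation. With thinning 8 of 10549 rose, and with the 3 controls as 1 group 7 of 15355. In those settings 0 of the 9 genes is near the share over all genes. Irf7 had an adjusted p of 0.208 with DESeq2 and 0.707 with robust edgeR estimation, and Usp18 of 0.227 and 0.708.

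**Figure D1:**
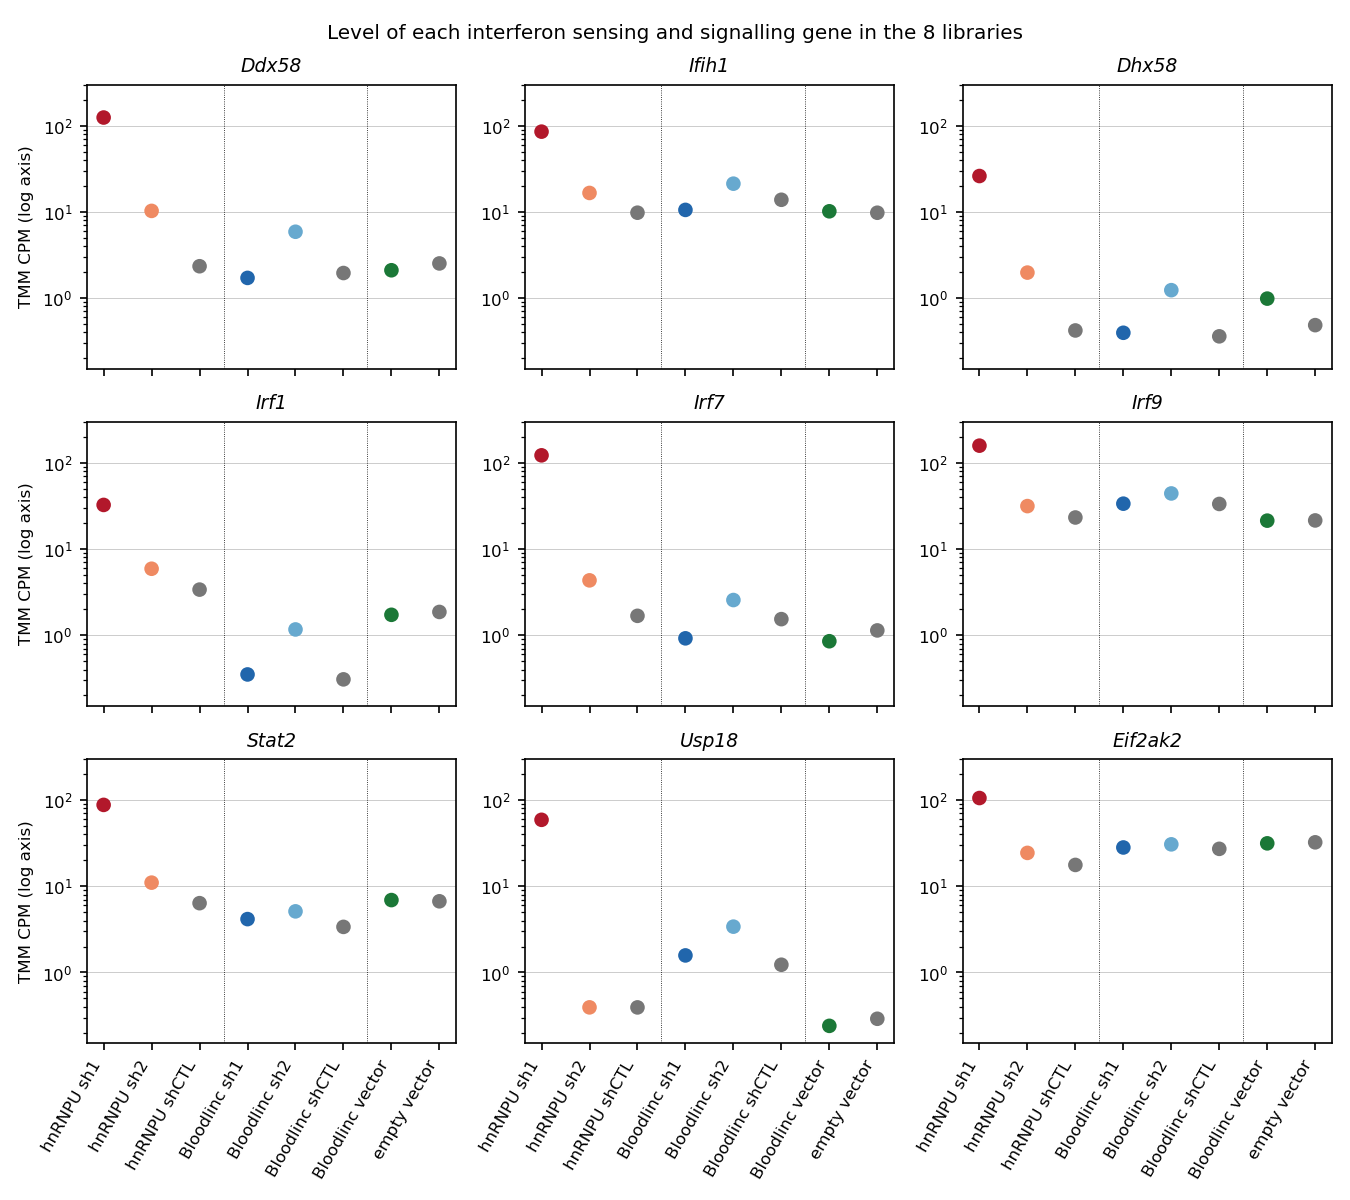
Level of each of the 9 genes in the 8 libraries, as TMM CPM on a log axis shared by all panels, 1 point per library, with dotted lines between the hnRNPU, Bloodlinc and vector experiments. The hnRNPU hairpin 1 library is the highest point in every panel, from 26.0 CPM in Dhx58 to 158 CPM in Irf9.

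Ddx58 (ENSMUSG00000040296, chr4:40203773-40239828 on GRCm38) encodes RIG-I, which senses short double-stranded RNA with a triphosphate end. It stood at 124 and 10.2 CPM with hnRNPU hairpins 1 and 2 (210 and 26 counts), against 2.33 CPM in their control (89 counts). Both hairpin libraries lay above every other library of the series, where Ddx58 was between 1.71 and 5.87 CPM. Its log2 fold change was 4.83 (SE 0.80, adjusted p = 4.46e-06, edgeR). Without hairpin 1 it was 2.12 and did not pass.

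Ifih1 (ENSMUSG00000026896, chr2:62595798-62646255) encodes MDA5, the sensor of long double-stranded RNA. Its level was 85.1 CPM with hnRNPU hairpin 1 and 16.5 CPM with hairpin 2, against 9.76 CPM in their control. Hairpin 1 was set apart from all other libraries, but hairpin 2 lay below the 21.2 CPM of Bloodlinc hairpin 2. Its log2 fold change of 2.36 (SE 0.66, adjusted p = 0.0458, edgeR) was the closest to the threshold of those that passed, and it kept its call in 4 of 14 alternative analyses.

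Dhx58 (ENSMUSG00000017830, chr11:100694884-100704271) encodes LGP2, a helicase of the same family that lacks the signalling domains of the other sensors and modulates them. With hnRNPU hairpins 1 and 2 it reached 26.0 and 1.97 CPM, and 0.420 CPM in their control, from 44, 5 and 16 counts. Dhx58 passed at 5.01 on the log2 scale (SE 1.20, adjusted p = 0.00914, edgeR), and per unit of exon length Dhx58 had the lowest median level of the 9 genes. Its exons overlap those of Dhx58os on the opposite strand by 141 bp. Exons of Irf1, Irf7, Usp18 and Eif2ak2 also overlap genes on the opposite strand, by 45 to 174 bp, and those of Irf9 overlap Rnf31 on the same strand by 123 bp. The strand setting of the counting is not given in the sources used here, so reads of these stretches cannot be assigned with certainty.

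Of the transcription factor genes, Irf7 moved most. Irf7 (ENSMUSG00000025498, chr7:141262706-141266481) encodes the factor that amplifies type I interferon transcription. It was at 122 and 4.33 CPM with hnRNPU hairpins 1 and 2 (207 and 11 counts), against 1.68 CPM in their control (64 counts), so that hairpin 1 lay 28.2-fold above hairpin 2 (95% counting interval 15.5 to 57.4). Irf7 passed at 5.22 on the log2 scale (SE 0.85, adjusted p = 2.26e-06, edgeR); without hairpin 1 this was 1.36 and did not pass.

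Stat2 (ENSMUSG00000040033, chr10:128270559-128292849), whose product carries the activation domain of ISGF3, was at 88.1 and 11.0 CPM with hnRNPU hairpins 1 and 2, against 6.37 CPM in their control. Both hairpin libraries lay above the other 6, which ran between 3.38 and 6.92 CPM. Stat2 passed at 2.94 on the log2 scale (SE 0.72, adjusted p = 0.0123, edgeR); without hairpin 1 this was 0.78 and did not pass.

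Irf9 (ENSMUSG00000002325, chr14:55603571-55610030), the DNA-binding subunit of ISGF3, was at 158 and 31.5 CPM with hnRNPU hairpins 1 and 2, against 23.2 CPM in their control. Hairpin 2 lay just below the libraries of the Bloodlinc knockdown and their control, at 33.4 to 44.2 CPM. The log2 fold change of 2.02 (SE 0.60, adjusted p = 0.0836, edgeR) did not pass. Irf1 (ENSMUSG00000018899, chr11:53770014-53778374), an early factor induced by interferon gamma, was at 32.5 and 5.91 CPM, against 3.38 CPM in the control. Its log2 fold change of 2.48 (SE 0.89, adjusted p = 0.224, edgeR) did not pass either. Irf1 was also the most uneven of the 9 genes among the controls, at 3.38 CPM with the hnRNPU control hairpin, 0.308 CPM with the Bloodlinc control hairpin (6 counts) and 1.86 CPM with the empty vector, an 11.0-fold range. With the Bloodlinc control hairpin library in place of its own control, Irf1 passed with a log2 fold change of 5.92.

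Usp18 (ENSMUSG00000030107, chr6:121245906-121270917) encodes a protease that removes ISG15 from proteins and also blocks the type I interferon receptor. It was at 59.1 and 0.394 CPM with hnRNPU hairpins 1 and 2, against 0.393 CPM in their control, from 100, 1 and 15 counts. Hairpin 1 was above every other library, while hairpin 2 and the control could not be told apart, with a ratio of 1.0 and a 95% counting interval of 0.0238 to 6.51. The log2 fold change of 6.20 (SE 1.07, adjusted p = 1.23e-05, edgeR) was the largest of the 9 genes and became −0.0067 without hairpin 1. Both libraries enter the fit as replicates, and the spread assumed for a gene came mainly from genes of like abundance (prior degrees of freedom 397, against 2 from the libraries).

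Eif2ak2 (ENSMUSG00000024079, chr17:78852564-78882573) encodes PKR, the kinase that halts translation on binding double-stranded RNA by phosphorylating eIF2α. It was at 106 and 24.4 CPM with hnRNPU hairpins 1 and 2, against 17.7 CPM in their control. Hairpin 2 lay below all 5 libraries of the Bloodlinc and vector experiments, which were at 27.2 to 32.4 CPM. For Eif2ak2 the log2 fold change of 1.87 (SE 0.60, adjusted p = 0.138, edgeR) did not pass in the main analysis or in any of 14 alternative analyses.

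Read apart, each hairpin is a single library, and its ratio to the control carries only a counting interval and no test. With hnRNPU hairpin 1 all 9 genes exceeded a log2 difference of 1 (prior count 2) over the control, as did 20.5% of all tested genes, and the ratios ran between 5.97-fold in Eif2ak2 and 150-fold in Usp18. With hnRNPU hairpin 2 the same held for 3 of the 9 genes (Ddx58, Dhx58 and Irf7), as for 13.0% of all tested genes, and the ratios ran between 1.0-fold and 4.69-fold. The median log2 difference of the 9 genes was 3.77 with hairpin 1 and 0.78 with hairpin 2, against medians over all tested genes of −0.28 and −0.12. The counting interval lay above 1 for 9 genes with hairpin 1 and for 7 with hairpin 2, Irf1 and Usp18 being those that spanned it. For these interval counts no share over all tested genes is given. Directly between the hairpins, all 9 genes were past a log2 difference of 1 in favour of hairpin 1, as were 15.2% of all tested genes, with a median of 2.99. All 9 genes had their highest value of the 8 libraries with hnRNPU hairpin 1, where 22.5% of all tested genes had theirs.

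**Figure D2:**
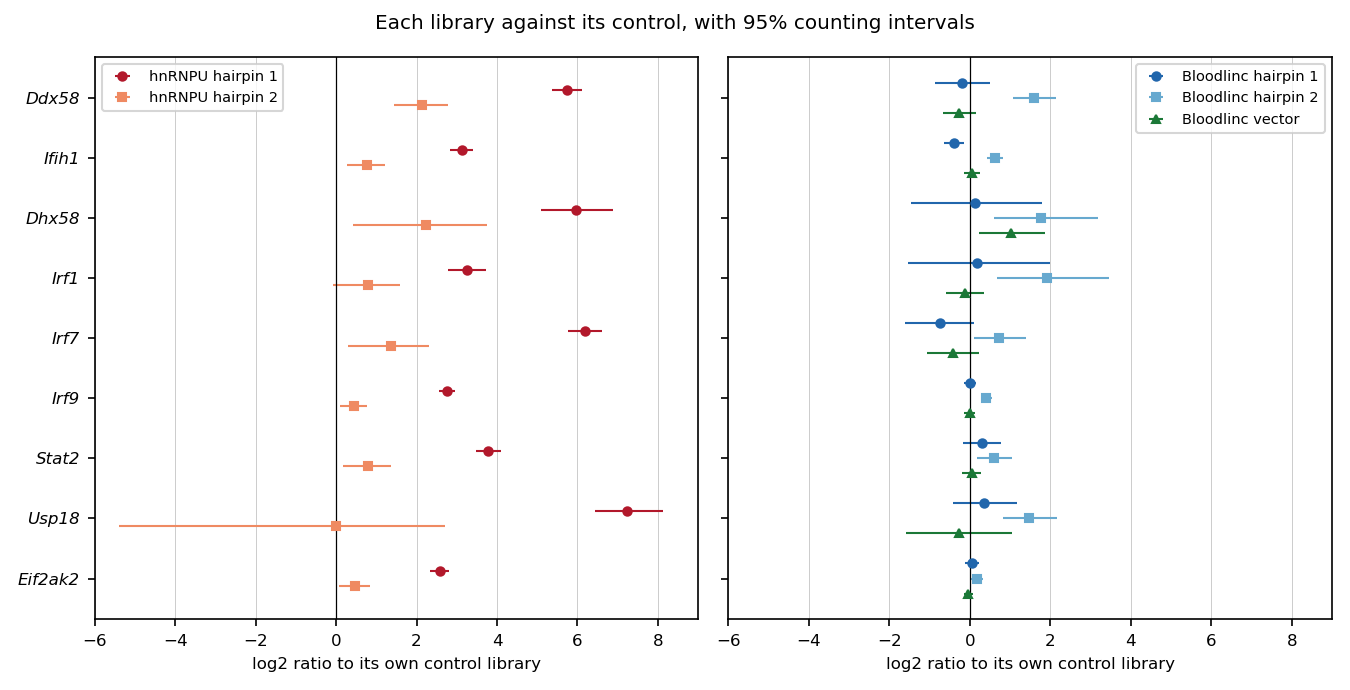
Log2 ratio of CPM for each gene in a single library to its own control library, with hnRNPU hairpins on the left and Bloodlinc hairpins and the Bloodlinc vector on the right, and bars for 95% exact conditional binomial intervals (counting error only). With hnRNPU hairpin 1 all 9 intervals lie above 0, and the interval of Usp18 with hnRNPU hairpin 2, from 1 count, is the widest.

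Markers of other blood cells also differed between these libraries. Summed granulocyte markers came to 9290 and 3454 CPM with hnRNPU hairpins 1 and 2, against 1623 CPM in their control, with 8 of 9 markers higher with hairpin 1 than in the control. S100a8 and S100a9 made up much of that sum, at 2265 and 3178 CPM with hairpin 1, against 341 and 436 CPM in the control. Ngp, Camp and Ltf were also well above the control. The rest of the list was near it: Mpo was at 435 CPM with hairpin 1, against 389 CPM, and Elane at 26.6 CPM, against 27.0 CPM. Prtn3 was at 68.0 CPM, against 58.8 CPM, and Ctsg at 35.5 CPM, against 32.1 CPM. The granulocyte list thus did not rise as a whole. Summed macrophage markers came to 1548 CPM with hairpin 1 and 474 CPM with hairpin 2, against 238 CPM in their control. With hairpin 1 the macrophage sum was mostly Lyz2 (1472 CPM), and 7 of the 12 markers were at 0 counts there (Mertk, C1qa, C1qb, C1qc, Cd163, Marco and Cd5l).

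The plasmacytoid dendritic and dendritic list, cells known for high interferon output, summed to 39.6 and 11.0 CPM with hnRNPU hairpins 1 and 2 and to 6.45 CPM in their control. Bst2, itself an interferon-induced gene, gave 31.3 CPM of the sum with hairpin 1, and Siglech was at 0 counts with both hairpins. Lymphoid markers summed to 155 and 68.5 CPM, against 31.7 CPM in the control, and megakaryocyte markers to 105 and 70.1 CPM, against 53.9 CPM. Their part in the levels of the 9 genes was not tested, nor was that of the depth of these libraries or of their counts outside genes. In RNA from mixed cells, more cells of a type and more RNA per cell cannot be told apart.

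**Figure D3:**
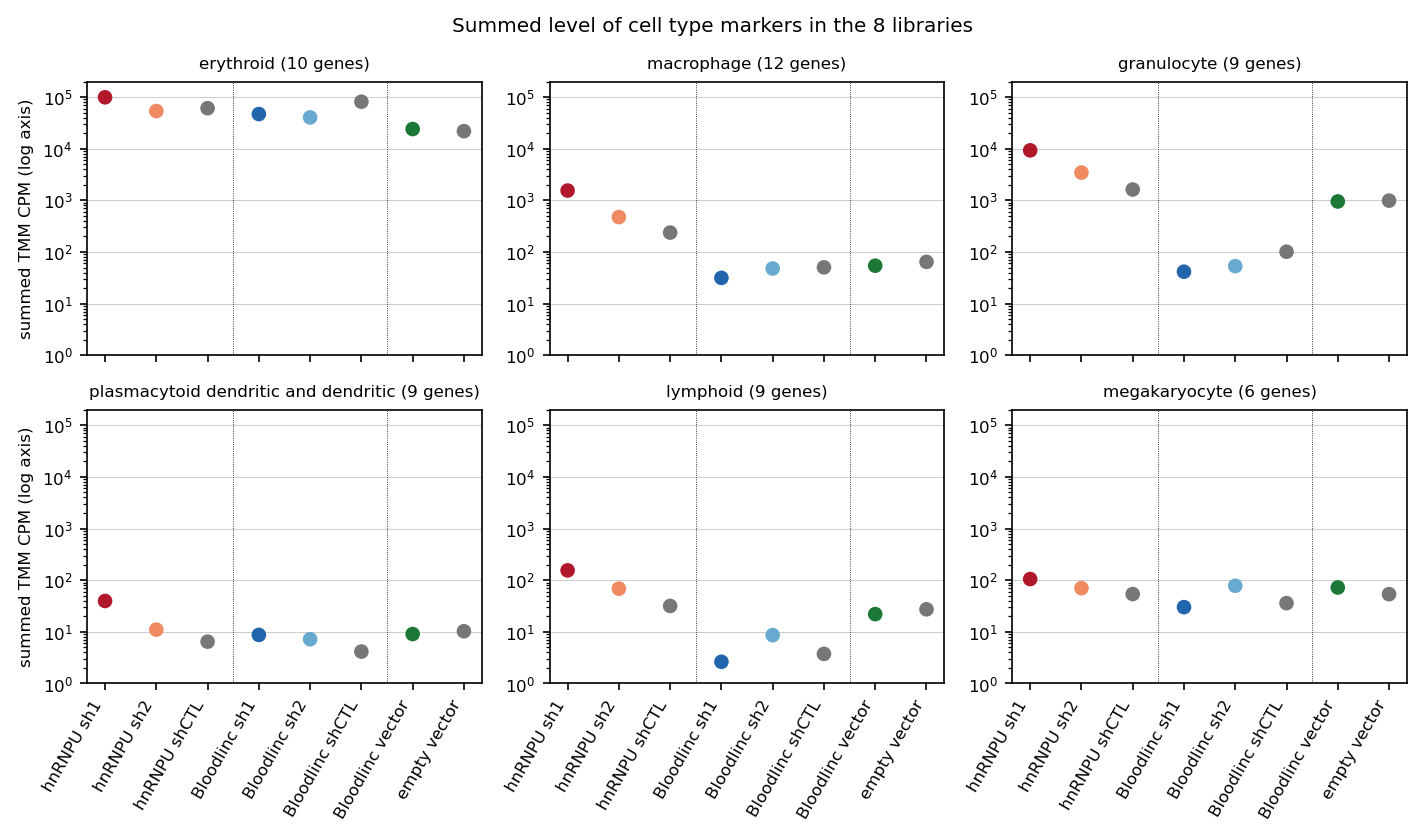
Summed TMM CPM of 6 lists of cell type markers in the 8 libraries, on a log axis shared by all panels, with colours and dotted lines as in the plot of the 9 genes. Granulocyte, macrophage and lymphoid sums are highest with hnRNPU hairpin 1, at 9290, 1548 and 155 CPM, and all 3 are lower in the Bloodlinc hairpin and control hairpin libraries than in the other 5.

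Other genes of the pathway were taken by role. Of the 9 interferon receptor and JAK kinase genes, 0 rose and 0 fell in the hnRNPU knockdown, with a median log2 fold change of 0.67, against −0.09 over all genes. Over all tested genes 0.580% rose and 0.300% fell, so 0 calls in a list of this size is near the general share. Jak1, a kinase of the interferon receptors, was at 205 and 147 CPM with hnRNPU hairpins 1 and 2, against 108 CPM in their control. Jak2, which signals from the interferon gamma and erythropoietin receptors, was at 124 and 94.9 CPM with the hairpins and at 109.9 CPM in the control. Of the 10 genes listed as other negative regulators, Isg15 was the only one to rise and 0 fell, with a list median of 0.71. Whether Isg15 acts as a negative regulator in these cells was not tested. Isg15, the ubiquitin-like protein that USP18 removes, was at 187 CPM with hairpin 1 and 4.33 CPM with hairpin 2, against 3.23 CPM in their control (log2 fold change 4.88, SE 0.78, adjusted p = 1.27e-06, edgeR). Without hairpin 1 Isg15 was at a log2 fold change of 0.42 and did not pass, nor did it with DESeq2, thinning, robust estimation or the 3 controls as 1 group.

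Among the other IRF genes 4 of 6 were tested and 0 passed in either direction, with a median log2 fold change of 0.40, against −0.09 over all genes. For this list and those below, too, 0 calls is near the shares over all tested genes, 0.580% higher and 0.300% lower. Irf3, which encodes the factor that the RNA sensors activate through TBK1, was at 21.3 and 26.4 CPM with hnRNPU hairpins 1 and 2, against 31.1 CPM in their control, and Irf2, a repressor of IRF1 targets, at 18.3 and 12.2 CPM, against 9.02 CPM. Among the other nucleic acid sensors, adaptors and kinases 17 of 19 were tested and 0 passed. Tbk1, the gene of that kinase, was at 70.9 and 45.7 CPM with the hairpins and 49.7 CPM in the control, and Tank, its scaffold, at 62.7 and 57.1 CPM, against 54.0 CPM. These are the genes of highest level in that list and do not stand for the rest of it. Its median log2 fold change was 0.64, with 15 of the 17 tested genes above 0. The list's median log2 difference from the control was 1.13 with hairpin 1 and 0.02 with hairpin 2. None of the 8 genes of the eIF2 kinases and stress branch passed either, with a median log2 fold change of 0.03. Atf4, the transcription factor translated when eIF2α is phosphorylated, was at 377 and 336 CPM with the hairpins and 402 CPM in the control, and Ppp1r15a, the phosphatase subunit that reverses this, at 1573 and 727 CPM, against 750 CPM.

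The interferon genes could not be tested. Of 20 listed, 11 matched an ID in the files, and all 11 were at 0 counts in both hnRNPU hairpin libraries. At the depth of those libraries a count of 0 allows up to 1.77 CPM with hairpin 1 and 1.18 CPM with hairpin 2. In the deeper libraries their counts were few: Ifna2 had 2 counts each with the Bloodlinc vector and the empty vector and 1 in the hnRNPU control, Ifng had 4 and 1 counts with the Bloodlinc vector and the empty vector, and Ifnb1 had 0 in all 8 libraries.

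**Figure D4:**
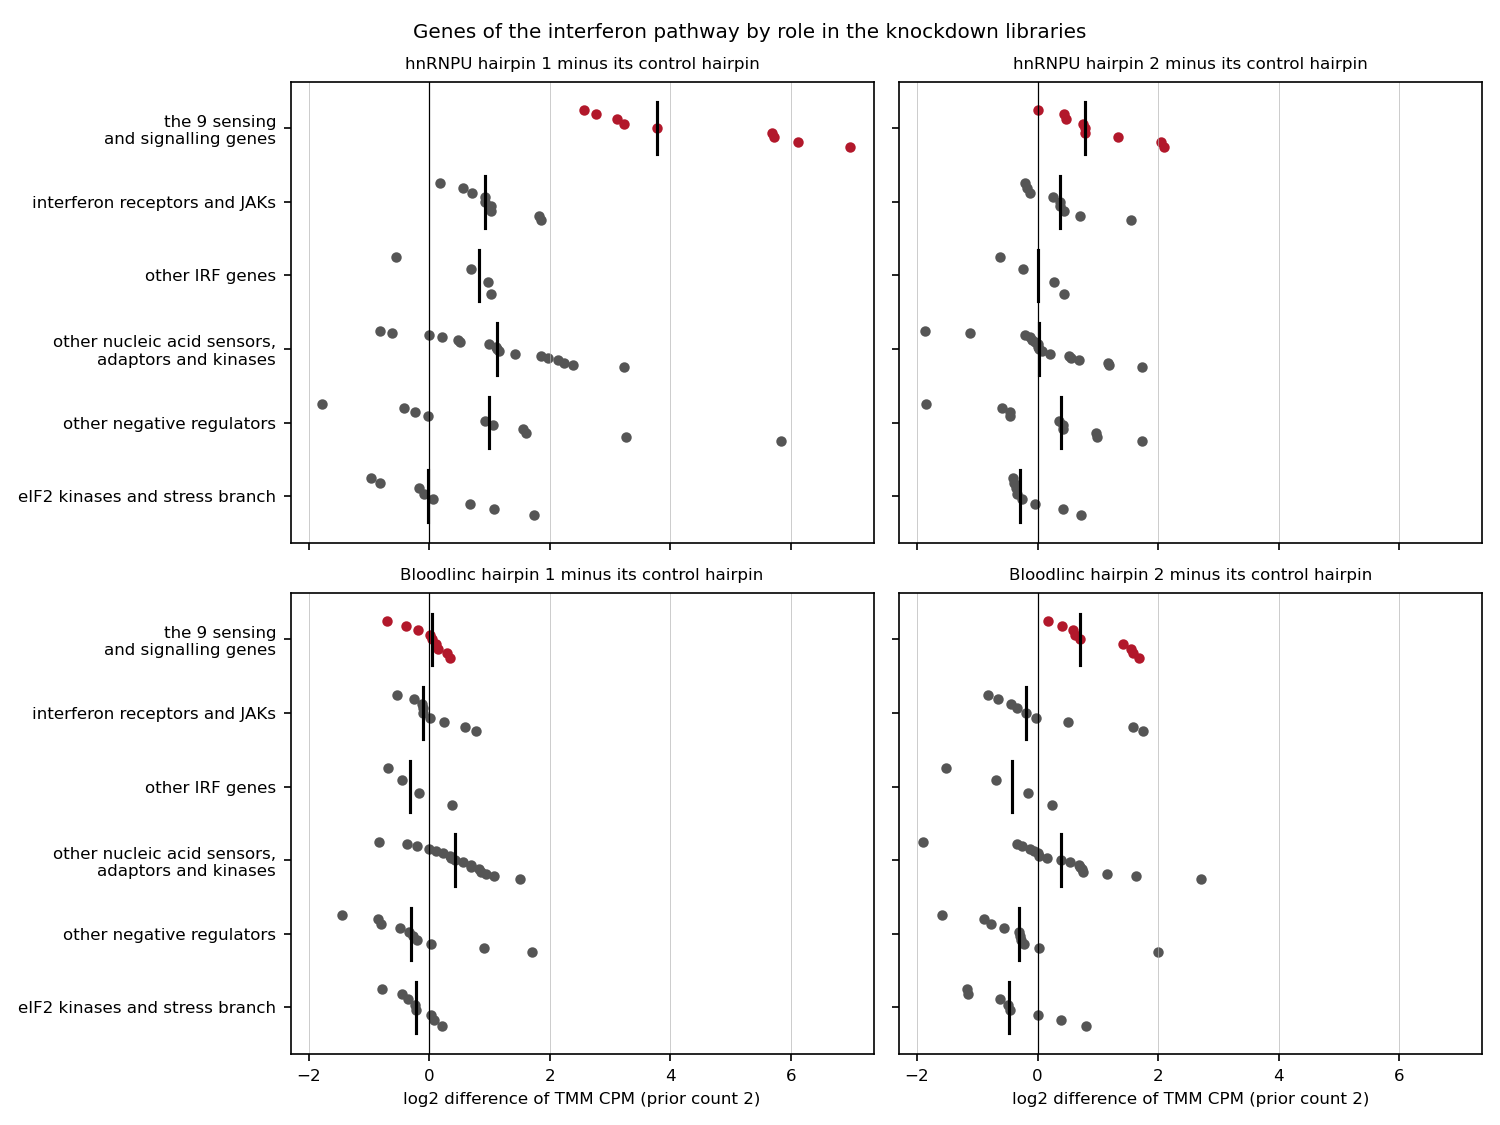
Log2 difference of TMM CPM (prior count 2) from the matched control hairpin library for every tested gene of the pathway, grouped by role, in each of the 4 hairpin libraries, with 1 point per gene and a black line at each list's median. With hnRNPU hairpin 1 all 9 sensing and signalling genes lie past a log2 difference of 2, and in the lists below them Isg15 is the farthest point to the right.

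In the Bloodlinc knockdown 0 of the 9 genes passed, where 0.0977% of all tested genes rose and 0.0261% fell, with an adjusted p of 1 for each of the 9 (edgeR). An unadjusted p under 0.05 was reached by 613 of all tested genes and by 0 of the 9, and DESeq2 also called 0 of the 9. The log2 fold changes of the 9 genes ran between 0.11 and 1.31 with a median of 0.46, against 0.06 over all genes tested. None of the pathway lists held a gene that passed. With both hnRNPU hairpin libraries left out of the fit, an analysis added after the data were seen, the count was again 0.

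The Bloodlinc hairpins differed from each other as single libraries. Ddx58 was at 1.71 and 5.87 CPM with Bloodlinc hairpins 1 and 2, against 1.95 CPM in their control, so that hairpin 2 alone was above it. Usp18 was at 1.58 and 3.40 CPM, against a control value of 1.23 CPM, and Irf1 at 0.351 and 1.17 CPM, against 0.308 CPM, from 8, 36 and 6 counts. Dhx58 was at 0.394 and 1.23 CPM, against 0.359 CPM, from 9, 38 and 7 counts. These 4 genes were the ones past a log2 difference of 1 with hairpin 2, where 15.7% of all tested genes were, and with hairpin 1 there were 0 of the 9, where 7.40% were.

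Counting intervals of the ratio to the control, which cover counting error only, lay above 1 for all 9 genes with Bloodlinc hairpin 2. No share of all tested genes is given for such intervals, so the count of 9 cannot be set against a background. With hairpin 1 the intervals lay above 1 for 0 genes and below 1 for Ifih1. Ifih1 was at 10.5 CPM with hairpin 1, 21.2 CPM with hairpin 2 and 13.8 CPM in the control. Irf7 had 0.920 CPM with hairpin 1 and 2.56 CPM with hairpin 2, against 1.54 CPM, so the hairpins stood on either side of the control. The smallest ratios with hairpin 2 were those of Eif2ak2 (1.13, 95% counting interval 1.01 to 1.26) and Irf9 (1.32, 1.21 to 1.46), with Irf9 at 33.6 and 44.2 CPM, against 33.4 CPM, and Eif2ak2 at 28.2 and 30.7 CPM, against 27.2 CPM. Stat2 was at 4.16 and 5.12 CPM, against 3.38 CPM. The macrophage marker sum was 31.6 CPM with hairpin 1 and 47.9 CPM with hairpin 2, against 50.4 CPM in the control, and the granulocyte sum 41.6 and 53.3 CPM, against 101 CPM. Within the macrophage list Csf1r was at 1.93 and 22.5 CPM, against 1.69 CPM (44 and 695 counts, against 33). Other sums were higher with hairpin 2 than in the control, though not through all their markers. The megakaryocyte sum was 30.1 and 78.0 CPM with hairpins 1 and 2, against 35.9 CPM, with 4 of 6 markers higher with hairpin 2. Itga2b gave 63.9 CPM of the sum with hairpin 2. The lymphoid sum was 2.63 and 8.62 CPM, against 3.74 CPM (3 of 9 markers higher). The endothelial sum was 4.12 and 8.07 CPM, against 4.51 CPM (3 of 6 higher). The dendritic sum was 8.72 and 7.20 CPM, against 4.15 CPM (2 of 9 higher). H2-Ab1 gave 6.75 and 5.83 CPM of the dendritic sum, against 2.05 CPM in the control. The part of these markers in the levels of the 9 genes with Bloodlinc hairpin 2 was not tested.

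Whether the response to the hnRNPU hairpins differed from that to the Bloodlinc hairpins was tested directly, as a contrast between the knockdowns. It was larger in the hnRNPU knockdown for 3 of the 9 genes and smaller for 0, where 0.306% of all tested genes were larger and 0.0195% smaller. Irf7 differed by 5.02 on the log2 scale (SE 1.01, adjusted p = 0.000906, edgeR), Usp18 by 5.18 (SE 1.21, adjusted p = 0.0135) and Ddx58 by 3.86 (SE 0.94, adjusted p = 0.0229). The differences of the other 6 genes ran between 1.17 in Irf1 and 3.82 in Dhx58 and did not pass. Without hnRNPU hairpin 1 the count was 0, and without hnRNPU hairpin 2 or without Bloodlinc hairpin 1 it was 1, Irf7 in both cases. With DESeq2, robust estimation or thinning the count was also 0, though DESeq2 gave no adjusted p for Usp18.

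With the Bloodlinc vector against the empty vector, 1 library each and no test, 0 of the 9 genes were past a log2 difference of 1, where 0.371% of all tested genes were higher by that much and 1.38% lower. Of the 9 counting intervals, given without a share over all tested genes, 8 held a ratio of 1. Dhx58 was the exception, at 0.983 CPM with the Bloodlinc vector and 0.484 CPM with the empty vector, from 45 and 20 counts (ratio 2.03, 95% counting interval 1.18 to 3.63). Ddx58 was at 2.10 and 2.52 CPM, Ifih1 at 10.1 and 9.75 CPM, and Irf9 at 21.4 and 21.5 CPM with the Bloodlinc and the empty vector. Usp18 was at 0.240 CPM with the Bloodlinc vector and 0.290 CPM with the empty vector, its lowest levels in the series. The median log2 difference was −0.04 over the 9 genes and 0.01 over all tested genes.

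Per kilobase of exon, the 9 genes differ in level before any comparison. By the median of the 8 libraries the order was Irf9 at 6.02 CPM per kb, Eif2ak2 at 5.76, Ifih1 at 1.49, Stat2 at 1.10, Irf1 at 0.451, Irf7 at 0.426, Ddx58 at 0.344, Usp18 at 0.291 and Dhx58 at 0.224. Across the 3 control libraries the CPM of a gene varied 11.0-fold for Irf1, 4.24-fold for Usp18 and 1.29-fold to 1.98-fold for the other 7 genes, so that neighbours in this order such as Irf9 and Eif2ak2, or Irf1 and Irf7, do not differ beyond that spread. The step from Eif2ak2 to Ifih1 was larger than the spread of either gene. The 4 genes of lowest median level per kilobase (Irf7, Ddx58, Usp18 and Dhx58) had the 4 largest log2 fold changes in the hnRNPU knockdown. The pair of highest level (Irf9 and Eif2ak2) had the smallest. The cut between Irf7 and Irf1 lies within the spread of the controls, and the control level enters the fold change itself, so this is a description only.

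The genes whose pattern over the 8 libraries was most like the mean log2 level of the 9 genes were sought among 8198 protein-coding genes of at least 5 CPM on average over the 8 libraries. That minimum counts hnRNPU hairpin 1, so it favours genes high there: over the other 7 libraries Ifi47 averaged 1.78 CPM, Igtp 1.12 CPM, Irgm2 1.17 CPM and Tdrd7 4.08 CPM, and without hairpin 1 they would not have entered. Among the closest were Parp14 (Pearson r = 0.991), Ifi47 (0.989), Igtp (0.988), Irgm2 (0.985) and Tdrd7 (0.983), as a description with no p. These genes share the high value of hnRNPU hairpin 1, a shallow library. Parp14, for example, was at 184 and 13.0 CPM with hnRNPU hairpins 1 and 2, against 5.09 CPM in their control. Over the other 7 libraries r was 0.884 for Parp14, 0.903 for Ifi47, 0.840 for Igtp, 0.817 for Irgm2 and 0.790 for Tdrd7. Ifi47 then ranked 27 among the genes compared, and Tdrd7 ranked 161.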

How the data were processed

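The submitters' processing notes name TopHat2 2.0.11, HTSeq and the build mm9; the annotation release and strand setting are not given in the sources used here. The authors deposited raw counts, 1 file per library, with 37620 gene IDs and 5 summary lines, which stayed out of library sizes and tests. Multiply placed reads are outside these counts. GENCODE M21 on GRCm38 matched 87.4% of the IDs, supplying symbols, exon lengths and positions, and RefSeq supplied promoters (GRCm38.p6); no coordinates were converted between builds.

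A single edgeR 4.0.16 fit (R 4.3.3, limma 3.58.1) held all 8 libraries in 6 groups with TMM scaling, filterByExpr (15355 genes kept) and non-robust quasi-likelihood F-tests. The Benjamini-Hochberg adjustment ran over the whole table, and calls were made under 0.05. Only the hairpin pairs are repeats, with 2 residual degrees of freedom, so a lone control is taken to scatter as they do. Prior degrees of freedom were 397 and the common dispersion 0.145. For pairs of libraries log2 differences used prior count 2, and their 95% intervals are exact conditional binomial intervals of the count ratio. Intervals and floors of 3 counts cover counting error only.

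The 9 genes, the pathway lists and the marker lists were chosen with earlier results of these data known. Genes were named by rule: all 9; from each pathway list up to 4 genes that passed, or up to 2 of the highest level where none did; and the 6 genes most like the mean of the 9. Some results of these lists are not reported here. Ifnb1 and the marker genes printed were chosen after values were seen. The analysis was tested on simulated data, in which both hairpins of a target had the same mean level of each gene. That test does not cover genes whose hairpins diverge, as those of Usp18 did. Alternatives were DESeq2 1.42.0, its size factors within edgeR, other filters, thinning of every library to 2612916 gene counts, robust estimation, other controls, other prior counts, fewer libraries and a replicate block.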

Additional observations from a re-analysis of the deposited data

Results flagged for a closer look

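The effect of the hnRNPU hairpins and that of the Bloodlinc hairpins, each against its own control hairpin library, differed by a test of the contrast itself (edgeR) for 3 of the 9 genes. The difference was 5.02 for Irf7 (adjusted p = 0.000906), 5.18 for Usp18 (adjusted p = 0.0135) and 3.86 for Ddx58 (adjusted p = 0.0229), on the log2 scale. Irf7 and Ddx58 were higher with both hnRNPU hairpins than in their control, and Usp18 with hairpin 1 only beyond counting error. Without hnRNPU hairpin 1 the differences were 1.15 for Irf7, −1.05 for Usp18 and 1.14 for Ddx58, and none passed. None passed with DESeq2 (no adjusted p for Usp18), robust estimation or thinning either.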

How the results depend on the processing

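The count of the 9 genes that rose in the hnRNPU knockdown, 6 in the main analysis, was 5 to 7 with DESeq2's size factors, no filter, mitochondrial ribosomal RNA and unmatched IDs removed, the other control hairpin library or only the 3 libraries of the comparison. It was 3 with DESeq2, 1 with robust estimation, and 0 with a filter of 5 CPM in 2 libraries (6 of the 9 genes tested, with Dhx58, Irf7 and Usp18 removed by the filter), with every library thinned to the shallowest, or with the 3 control libraries as 1 group. Leaving out 1 hairpin library at a time gave 0 to 5 (0 without hnRNPU hairpin 1, where 297 of all genes had an unadjusted p under 0.05 and the lone hairpin library was assumed to vary like the other groups). The causes were not tested. Over all genes the count that rose was 89, and 7 to 1307 under the alternatives, the highest with the other control hairpin library. It was 8 with the filter of 5 CPM, 8 with thinning and 7 with the 3 controls as 1 group. A count of 0 of the 9 genes in those settings is near the share over all genes. DESeq2's size factors moved the median of all genes by 0.12 on the log2 scale and the share of calls that were higher to 76.8%, against 65.9%, and all 9 genes stayed above 0.

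In the contrast of the knockdowns the count was 3, 0 to 3 with 1 hairpin library left out at a time, and 0 with DESeq2 (which gave no adjusted p for Dhx58, Irf1 and Usp18), the filter of 5 CPM (which removed Irf7 and Usp18 before the test), thinning or robust estimation. Hairpin numbers belong to different hairpins and do not pair the libraries: across genes, the differences of hairpin 1 and hairpin 2 correlated at r = −0.0726 between the targets. With the hairpin number as a replicate block the count was 0.

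The Bloodlinc knockdown count was 0 under all 15 alternatives. Directions turned as follows, none of them a call in the alternative. In the hnRNPU knockdown Usp18 was at −0.0067 without hairpin 1 and at up to 7.21 without any other hairpin library. In the Bloodlinc knockdown without hairpin 2, Ddx58 was at −0.19, Ifih1 at −0.39 and Irf7 at −0.74, and with any other hairpin library left out they reached up to 1.61, 0.64 and 0.76; Stat2 was at −0.055 when thinned, −0.46 with the other control and −0.24 with 3 controls, where Irf1 was at −2.13 and −1.28. In the contrast, Irf1 was at −1.39 when thinned and −0.54 without hnRNPU hairpin 1, and Usp18 at −1.05 without it, against up to 2.30 and 6.19 with any other hairpin library left out. For the Bloodlinc vector, 4 of the 9 genes passed a log2 difference of 1 against the Bloodlinc control hairpin and 1 against the hnRNPU control hairpin, in place of 0 against the empty vector. Against the Bloodlinc control hairpin the directions were mixed, with Irf1 at 1.73 CPM, against 0.308 CPM, and Usp18 at 0.240 CPM, against 1.23 CPM. The share of all tested genes is not given for these pairs. Between the control hairpin libraries themselves, 21.9% of all tested genes were higher by that much and 10.9% lower with the hnRNPU control. Depth limits the hnRNPU hairpin libraries most, where Usp18 with hairpin 2 rests on 1 count.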
